A study of Mus musculus with 2 samples.

Results

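The cells described here are the mature B cells of mouse liver that the authors' clustering set apart from the main mature B cell cluster. They were chosen by the deposited annotation, as cells named mature B with a cluster number other than 1, and both the names and the cluster numbers rest on the measured profiles. There were 205 such cells among 2562 mature B cells and 11929 filtered cells. They fell into cluster 17, with 184 cells, and cluster 29, with 21 cells, while cluster 1 held the other 2357 mature B cells.

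CD45+ cells were sorted from liver and captured on BD Rhapsody, a microwell system in which each cell shares a well with a barcoded bead, and both mRNA and 49 oligonucleotide-tagged antibodies were counted as unique molecular identifiers (UMIs). The dnTGFβRII mice (TG) are a model of primary biliary cholangitis in which the mouse CD4 promoter drives a human TGF-β type II receptor that acts as a dominant negative. Wild type mice (WT) were the control. Each capture pooled 2 genotypes that were told apart by sample tags: TG was pooled with IFN-γ ARE-Del-/- mice and WT with P40-/-IL-2Ra-/- mice, and the cells of these pooled models were not analysed here. All mice were C57BL/6 with a labelled age of 10 weeks, although the study's methods give a younger age. There was 1 library per genotype and no replicate, so no test between genotypes was possible, and genotype, capture and pool cannot be told apart. The number of mice behind each library is not given in the sources used here.

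Mature B cells carry an IgM and IgD receptor whose signal passes through Cd79a and Cd79b, and they present antigen on MHC class II molecules. Ms4a1 (CD20) marks the lineage, whereas the T cell receptor with its CD3 chains marks T cells and is not part of the B cell programme. A barcode in a microwell system stands for whatever shared a well with its bead, which is usually 1 cell and at times more than 1.

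The share of mature B cells outside cluster 1 was lower in TG than in WT, and the difference lay in cluster 17. In TG they were 40 of 1068 mature B cells (3.75%, 95% exact binomial interval 2.69 to 5.07) and in WT 165 of 1494 (11.0%, 9.50 to 12.7). The difference was -7.30 percentage points (Newcombe interval -9.25 to -5.31). Cluster 17 held 29 TG cells (2.72%) and 155 WT cells (10.4%), a difference of -7.66 points (-9.50 to -5.81). Cluster 29 held 11 TG cells (1.03%) and 10 WT cells (0.669%), a difference of 0.361 points whose interval, -0.359 to 1.22, includes 0. All intervals here cover counting error only and not the spread between mice. Beside these shares, the WT pool had 24111 called cells in its capture and the TG pool 10026, a difference in cell load that moves with genotype, and its part in the shares was not tested. Without the cells that the doublet caller Scrublet marked, the difference was -2.04 points, with 18 of 1044 cells in TG and 52 of 1381 in WT. It was -0.19 points without the cells holding transcripts of both B and T cells, with 10 of 818 in TG and 17 of 1204 in WT.

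Cluster 17 cells carried B cell transcripts at the level of a B cell and T cell transcripts at the level of a T cell. Over 5 B cell genes, Cd79a and Ms4a1 among them, the median cluster 17 cell held 26 UMIs in TG and 15 in WT, against 24 and 16 in cluster 1 and 0 in T cells of either genotype. Over 5 T cell genes, it held 16 UMIs in TG and 17 in WT, against 1 and 0 in cluster 1 and 22 and 18 in T cells. At least 2 UMIs of each gene set were found on 28 of 29 TG cells (96.6%) and 148 of 155 WT cells (95.5%) of cluster 17. They were found on 21.4% and 10.7% of the less deeply read cluster 1 cells. Among immature B cells, whose depth was near that of cluster 17, they were found on 40.9% and 24.8%, and after thinning to 1000 UMIs on 3.63% and 5.94%. After every cell had been thinned to 1000 UMIs, which left out no cell, the shares were 62.1% and 65.8% in cluster 17, against 3.31% and 3.54% in cluster 1 and 0.704% and 0.456% in T cells. In cluster 29 the thinned share was 0 of 11 and 0 of 10 cells. Of all filtered cells with both sets at this depth, cluster 17 held 18 of 82 in TG and 102 of 184 in WT. Both clusters thus carried B cell transcripts, but in cluster 17 the mature B name left out the T and NK cell transcripts carried on the same barcodes. Whether a cluster 17 barcode stood for 1 cell or for more than 1 was not tested.

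**Figure D1:**
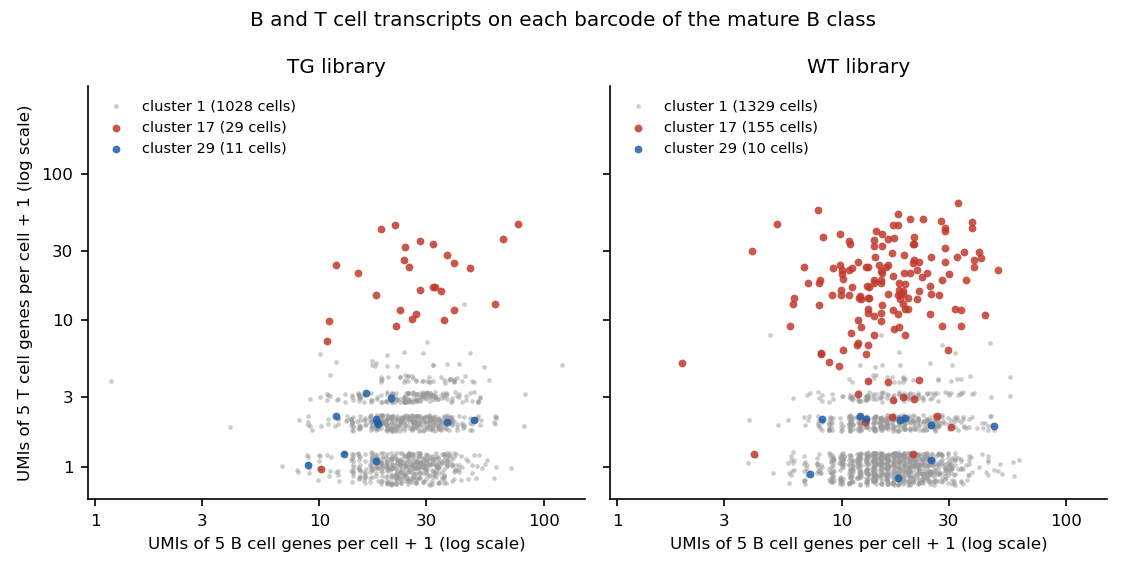
UMIs of 5 T cell genes (vertical axis) against UMIs of 5 B cell genes (horizontal axis) in each mature B cell, both as UMIs plus 1 on log axes, TG and WT in separate panels; each point is 1 cell, coloured by cluster and shifted slightly at random so that equal counts can be seen. Cluster 17 lies high on both axes, with median T cell gene counts of 16 in TG and 17 in WT, while clusters 1 and 29 have medians of 0 to 1.

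Single markers gave the same picture per cell, here as mean UMIs per cell with TG first and WT second. Cd79a, the signalling chain of the B cell receptor, was at 15.3 and 9.19 in cluster 17, 14.2 and 9.45 in cluster 1, and 0.33 and 0.11 in T and NK cells. Ms4a1 was at 4.31 and 2.43 in cluster 17 and 3.34 and 2.30 in cluster 1. Both B cell markers were thus near the cluster 1 level on cells that held more RNA. Cd3e, a signalling chain of the T cell receptor complex, was at 4.55 and 2.86 in cluster 17, 0.21 and 0.07 in cluster 1, and 4.83 and 2.74 in T and NK cells. Trac, the constant region of the T cell receptor α chain, was at 5.03 and 4.80 in cluster 17, 0.18 and 0.13 in cluster 1, and 4.71 and 4.86 in T and NK cells. For both T cell genes cluster 17 stood close to the T and NK cells and far above cluster 1 in each library. Each of the 29 and 155 cluster 17 cells had at least 1 Cd79a UMI, and Cd3e was found on 93.1% of TG and 79.4% of WT cells. After thinning, the Cd3e shares were 41.4% and 42.6%, against 6.23% and 3.46% in cluster 1.

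**Figure D2:**
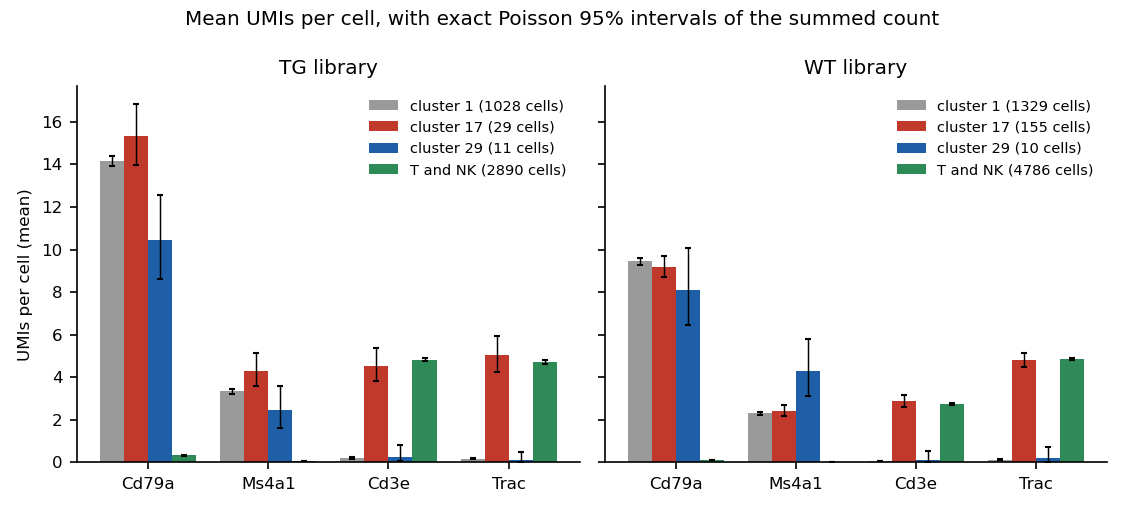
Mean UMIs per cell of the B cell genes Cd79a and Ms4a1 and the T cell genes Cd3e and Trac in cluster 1, cluster 17, cluster 29 and the T and NK cells, TG and WT in separate panels; bars are means and error bars 95% exact Poisson intervals of the summed count. Cluster 17 lies near the level of cluster 1 for the B cell genes and near that of the T and NK cells for the T cell genes, with Cd79a at 15.3 in TG and 9.19 in WT and Trac at 5.03 and 4.80.

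Cluster 17 cells also held more UMIs than cluster 1 cells. The median cluster 17 cell held 6111 UMIs in TG and 4501 in WT, which was 2.11 and 2.28 times the cluster 1 median. Immature B cells, another B cell class of the same libraries, had medians of 5965 and 4426 UMIs, close to those of cluster 17. A median cluster 1 cell and a median T or NK cell sum to 6304 UMIs in TG and 4715.5 in WT. In TG 82.8% and in WT 76.8% of cluster 17 cells lay above the 95th percentile of UMIs in cluster 1. Antibody counts were 1.43 and 1.66 times those of cluster 1. Scrublet, which scores a cell against simulated pairs of cells, marked 22 of 29 cluster 17 cells in TG (75.9%) and 113 of 155 in WT (72.9%), but 2 of 1028 and 0 of 1329 cells in cluster 1 and none in cluster 29. Over the whole filtered libraries it marked 0.839% of TG and 3.32% of WT cells. The median mitochondrial share was lower in cluster 17 (5.90% in TG, 6.86% in WT) than in cluster 1 (7.39% and 8.01%). How the filtering treated barcodes with more than 1 sample tag is not given in the sources used here.

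The 49 antibodies are a readout apart from the transcripts, and proteins of both lineages were found on cluster 17 cells. Their values are centred log ratios, the natural log of an antibody's count relative to all antibodies of the same cell, so a rise in one antibody lowers the others. Median levels of 8 of 49 antibodies (16.3%) were more than 0.5 higher in cluster 17 than in cluster 1 in TG, and 6 (12.2%) in WT, while 5 (10.2%) were more than 0.5 lower in each genotype. Over all cells outside cluster 1, 3 were higher (6.12%) and 3 lower (6.12%) in TG, and 6 (12.2%) and 5 (10.2%) in WT. CD90.2, a surface protein of T cells, had a median of 2.89 in TG and 3.43 in WT, against 1.95 and 1.68 in cluster 1 and 4.31 and 4.52 in T cells. TCRβ was at 1.35 and 1.51, against 0.70 and 0.58 in cluster 1. CD5, CD4, CD43 and CD44 completed the antibodies that were higher in both libraries, and CD49a and CD49b passed 0.5 in TG alone, where CD49a was at 1.48 against 0.34 in cluster 1. The B cell proteins stayed between cluster 1 and T cells but lower than cluster 1. CD45R was at 3.22 and 3.08 (cluster 1, 3.88 and 3.69) and IgD at 3.69 and 3.72 (4.71 and 4.43), and IgM and CD23 were also among the lower antibodies. On single barcodes, IgD within the range of cluster 1 together with TCRβ above its 95th percentile was found on 37.9% of cluster 17 cells in TG (11 of 29, interval 20.7 to 57.7) and on 67.7% in WT (105 of 155, interval 59.8 to 75.02). The same pair was found on 4.67% and 4.59% of cluster 1 cells, on 0.235% and 0.719% of T cells, and on 0 of 11 and 0 of 10 cluster 29 cells.

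Cluster 17 was compared with cluster 1 gene by gene, and the highest ratios included genes of cytotoxic and T cells. As CPM, the UMIs of a gene per 1000000 UMIs summed over the cells of a set, within a library, 108 of 2982 genes with enough counts (3.62%) were at least 2-fold higher in TG and 156 (5.23%) at least 2-fold lower. In WT 363 of 7163 genes (5.07%) were 2-fold higher and 290 (4.05%) lower. The median log2 ratio over all these genes was -0.01 in TG and 0.02 in WT. Over all 205 cells outside cluster 1, 103 of 3600 genes in TG (2.86%) were 2-fold higher and 148 (4.11%) lower, and in WT 365 of 7236 (5.04%) and 278 (3.84%). Because the clusters were drawn from these transcripts, the ratios describe cluster 17 and are not a test. TMM scaling sets the totals by the bulk of genes. With it, the TG split was 84 higher and 251 lower of 3269 genes in cluster 17. Over the 40 TG cells it was 87 and 265 of 3908, and the median of all genes moved by -0.15 in each. In WT cluster 17 the split turned, to 344 higher and 358 lower of 7215 genes. Over the 165 WT cells it was 351 and 354 of 7351, and the median moved by -0.07 in each.

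The 10 highest ratios shared by both libraries are given first. Gzma, a granzyme of cytotoxic granules, had a log2 ratio of 5.02 in TG (interval 4.86 to 5.18) and 4.998 in WT (4.65 to 5.38), at 5088 CPM in TG cluster 17 and 829 CPM in WT. Its partner Gzmb stood at 4.61 and 4.34. Ccl5, a chemokine of effector lymphocytes, was at 4.80 and 4.04, and Nkg7, a protein of cytotoxic granules, at 4.72 and 4.08. Cd7 (4.42 and 4.56), Ms4a4b (4.30 and 4.15), the IL-2 and IL-15 receptor chain Il2rb (3.99 and 3.85) and the transcription factor Id2 (3.32 and 3.33) followed. Trac was at 3.77 and 4.03 and Cd3e at 3.44 and 4.22. The 10 genes rested on 105 or more UMIs in each library, and none of them is a B cell gene.

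The 10 lowest ratios shared by both libraries were smaller in size. Blnk, the adaptor that links the B cell receptor to its downstream enzymes, had a log2 ratio of -1.30 in TG (-2.13 to -0.65) and -1.23 in WT (-1.59 to -0.90). Cd55, a complement regulator on the cell surface, was at -1.31 and -1.30, and the cholesterol transporter Abca1 at -1.66 and -1.30. Zbtb18, a transcriptional repressor, was at -2.20 and -1.18 on 4 and 39 UMIs. The cytokine receptor Il9r (-2.06 and -1.44) and the kinase Nuak2 (-2.08 and -1.28) had 3 UMIs each in TG. In TG Zbtb18, Il9r and Nuak2 met the count minimum through cluster 1, so their place was in part set by that minimum. Cyp4f18, Bmyc, Snx8 and Trim7 made up the rest, between -1.47 and -1.18 in both libraries. In WT without the cells holding B and T transcripts, which took out 148 of 155 cluster 17 cells, Blnk was at 0.04. In TG without called doublets, which took out 22 of 29, Trim7 was at 0.14.

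Gene lists set by role showed the same order. Of 12 B cell core genes, 2 in TG and 10 in WT were 2-fold lower, with a median log2 ratio of -0.81 and -1.18, and all 12 were below 0 in each library. Cd79a stood at -0.92 and -1.18 and Ms4a1 at -0.66 and -1.06, although their UMIs per cell were near those of cluster 1. MHC class II genes had a median of -1.04 in TG and -1.10 in WT, with 6 and 8 of 11 genes 2-fold lower. The class II chain H2-Aa was at -1.20 and -1.10 and the invariant chain Cd74 at -0.998 and -1.21. Follicular B cell genes had medians of -1.16 and -0.99, immunoglobulin constant genes -0.68 and -0.98, and B cell receptor signalling genes -0.45 and -0.95. T cell markers had a median of 3.34 over the 4 of 14 that passed the count minimum in TG and 3.85 over all 14 in WT, where 13 were 2-fold higher. NK cell markers had a median of 4.72 over the 5 of 13 that passed in TG and 4.14 over 12 of 13 in WT. Markers that are rare in cluster 1 met the count minimum through cluster 17, so a high ratio is in part a condition of being counted. Summed over all members, whatever their counts, T cell markers were at 4851 CPM in TG cluster 17 and 5947 CPM in WT (653 and 604 CPM in cluster 1) and NK cell markers at 18742 and 7684 CPM (728 and 456 CPM in cluster 1).

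Of 17 B-1 cell markers, 4 passed the count minimum in TG, 2 of them 2-fold higher, with a median of 1.16. In WT 9 passed, with 4 higher, 1 lower and a median of 0.64. Cd5, found on T cells and on B-1 cells, was at 3.26 in WT (2.51 to 4.11), on 50 UMIs, and had 4 UMIs in TG. The interferon-γ induced GTPases, which guard against intracellular pathogens, had a median of 0.87 in TG, with 3 of 7 2-fold higher, and 1.36 in WT, with 7 of 11 higher. The immunity-related GTPase Ifi47 was at 0.87 and 2.01 and the guanylate-binding protein Gbp7 at 1.23 and 2.11. MHC class I and immunoproteasome genes had medians of 0.31 and 0.64 over 15 genes. Macrophage and monocyte markers summed to 745 CPM in TG and 520 CPM in WT, against 118 and 101 CPM in cluster 1. Of them, Ly6c2 in TG (3.70) and Ly6c2 (3.14), Ccr2 (3.71) and Lyz2 (1.17) in WT were 2-fold higher, while 9 of 16 in TG and 8 of 16 in WT were at 0 UMIs, and their part in the other differences was not tested.

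The transcripts Cd4, Cd8a, Klrb1c and Ncr1 were each found on part of the cluster 17 cells. Cd4 was found on 55.2% of TG and 34.8% of WT cells, against 3.79% and 1.88% in cluster 1. It was also found on 49.8% of TG and 31.0% of WT T cells. The CD4 T class held only 238 of the 2131 TG and 734 of the 4171 WT T cells. Cd4 alone thus did not set CD4 T cells apart from other T cells. Cd8a was found on 37.9% and 32.3%, against 3.99% and 4.06%. After thinning to equal depth, Cd4 was on 17.2% and 11.6% and Cd8a on 13.8% and 16.8% of cluster 17 cells, and both were on under 2% of cluster 1 cells. Klrb1c (NK1.1) was found on 41.4% and 32.3%, and Ncr1, an activating receptor of NK cells, on 24.1% and 7.10%, while in cluster 1 Klrb1c was on 3.21% and 0.978% of cells and Ncr1 on 0.681% in TG and 0 of 1329 cells in WT (interval up to 0.277%). After thinning, Klrb1c was on 31.0% and 14.2% and Ncr1 on 3.45% and 1.94% of cluster 17 cells. Neither was confined to NK cells. Before thinning, Klrb1c was on 38.7% of TG and 48.7% of WT T cells, NKT cells included, and Ncr1 on 13.6% and 2.64%. Foxp3, the regulator of regulatory T cells, had 2 UMIs in TG and 13 in WT, and after thinning it was on 0 of 29 and 2 of 155 cells. The proliferation marker Mki67 was found on 27.6% of TG and 4.52% of WT cells, against 3.02% and 0.903% of cluster 1 cells and 21.4% and 5.39% of T cells. After thinning it was on 3.45% and 1.94% of cluster 17 cells, so no difference between the libraries was read from it.

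How close a sum of other cell classes came to cluster 17 was then measured, in a way chosen after its values were seen. The profile of cluster 17 was written as the closest mix of 13 other classes of the same library. In TG the mix was 43.5% cluster 1, 7.68% immature B cells and 48.8% T and NK classes, of which NK cells gave 25.3%. The classes within it depended on the weights of the fit, since without weights TG had 37.5% cluster 1, 15.2% immature B cells and 35.6% NK cells, with 47.2% T and NK classes in all. In WT it was 41.7% cluster 1 and 56.4% T and NK classes, with CD4 T at 17.9%, NKT at 17.4% and CD8αβ T at 11.4%. Without weights, WT had 58.2% T and NK classes in all, with CD4 T at 15.5%, NKT at 9.38% and CD8αβ T at 20.8%. In the weighted mix of each library macrophages were at 0%, and monocytes were at 0.03% in TG and 0% in WT. Against this mix, 7 genes in each library were 2-fold higher, in place of 108 in TG and 363 in WT against cluster 1, and 72 in TG and 78 in WT were 2-fold lower. The median size of a gene's log2 ratio was 0.228 in TG and 0.167 in WT against the mix, and 0.356 and 0.301 against cluster 1. Over the mix, the medians of all 25 gene lists with a value in TG lay within 0.5 of 0, and so did 30 of 31 in WT, where erythroid markers were at -1.56. B cell core genes were at 0.15 and 0.00 and T cell markers at 0.34 and 0.12. In TG, Igha, the constant region of IgA, stood 1.76 above the mix, with 164 UMIs of which 78.0% were in 3 cells. The adhesion molecule Icam1 stood 1.08 above it, with 36 UMIs of which 50% were in 3 cells. In WT, Lag3 stood 1.68 above the mix on 46 UMIs and Gzmk 1.28 on 36 UMIs, with 28.3% and 33.3% of them in 3 cells. The mix is fitted to the very profile it is compared with, so its closeness is a description.

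Each cluster 17 cell was also matched to cluster 1 alone or to an even mix of cluster 1 and 1 other class, whichever made its counts most likely. A T or NK class was chosen for 28 of 29 TG cells and 152 of 155 WT cells. Of cluster 1 cells, 93.7% in TG and 95.6% in WT were matched best by cluster 1 alone. The cluster 1 profile was summed from those same cluster 1 cells, and the clusters were drawn from the same transcripts. Both results were thus largely set in advance and are a description, not a test. In TG the class was NK for 12 of the 28 cells (42.9%, interval 24.5 to 62.8), against a 26.3% share of NK cells among the T and NK cells of that library. It was CD8αβ T for 2 cells (7.14%, 0.877 to 23.5), a class that made up 35.3% of the library's T and NK cells. NKT was chosen for 6, CD8αα T for 5, CD4 T for 3 and γδ T for none. In WT the class was NKT for 53 of 152 cells (34.9%, 27.3 to 43.0; library 46.6%) and CD4 T for 51 (33.6%, 26.1 to 41.7; library 15.3%). CD8αα T was chosen for 20 cells (13.2%, 8.23 to 19.6; library 4.05%), CD8αβ T for 14 (9.21%, 5.13 to 14.97; library 17.1%), NK for 12 and γδ T for 2. In this match CD8αβ T was thus under its library share in both genotypes. In WT NKT was also under its share and CD4 and CD8αα T above theirs, each beyond the counting interval. The closest mix did not put CD8αβ T under its library share in WT. There it gave 11.4% of a mix with 56.4% T and NK classes, and without weights 20.8% of one with 58.2%. The place of CD8αβ T in WT thus depended on the method. The transcript of the CD8β chain also went against the match in WT. Cd8b1 was found on 28.4% of WT cluster 17 cells and 18.8% of WT T cells (16.8% and 12.2% after thinning), and with 187 UMIs it stood 0.98 above the closest mix. In TG it was found on 31.0% and 35.5% (17.2% and 23.9% after thinning).

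**Figure D3:**
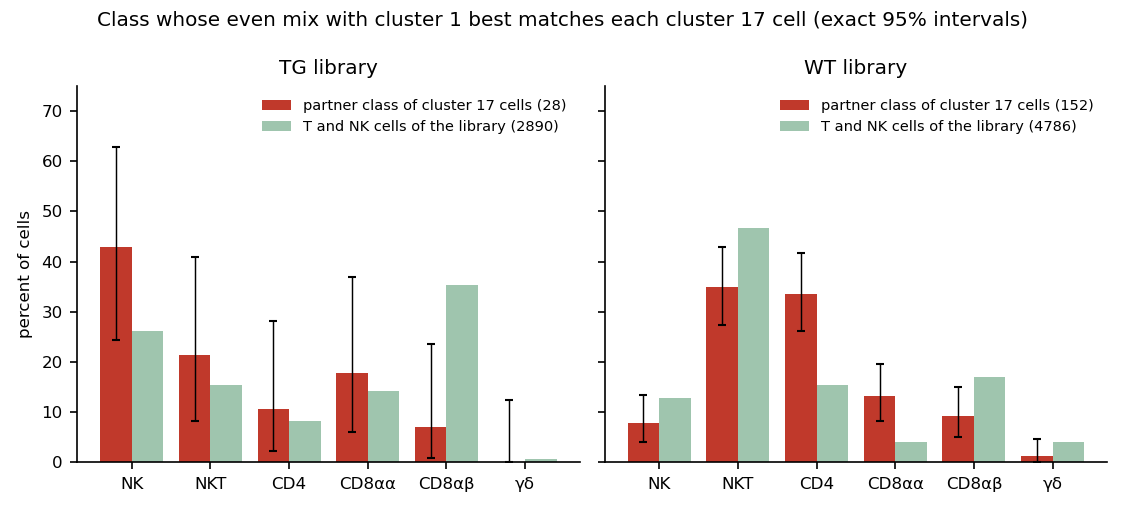
Percent of cluster 17 cells matched to each T or NK class (red bars with 95% exact binomial intervals) beside that class's percent among all T and NK cells of the library (green bars), for TG (28 cells) and WT (152 cells). The CD8αβ class lies below its library share in both panels, at 7.14% against 35.3% in TG and 9.21% against 17.1% in WT, although Cd8b1 was found on 28.4% of WT cluster 17 cells and 18.8% of WT T cells.

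Cluster 29 was a smaller set of cells, with B cell transcripts and proteins, T cell transcripts at the level of cluster 1 and Ncl and Eif5a among its highest ratios. With 11 TG and 10 WT cells, its sums hold few counts, and its genes were ranked although it is under the 20 cells otherwise asked for. Cells held 1.35 (TG) and 1.32 (WT) times the median UMIs of cluster 1, with antibody counts of 0.988 and 0.837 times. Of 585 genes with enough counts in TG, 23 (3.93%) were 2-fold higher and 73 (12.5%) lower than in cluster 1. In WT 24 of 433 (5.54%) were higher and 63 (14.5%) lower. Cluster 1 held 3135929 UMIs in TG and 2832045 in WT, against 42333 and 31971 in cluster 29. The count minimum was thus met almost wholly through cluster 1, and genes rare there could hardly enter. The split of higher and lower genes was in part set by that minimum. With TMM scaling the split was 16 higher and 200 lower of 792 genes in TG and 13 and 198 of 642 in WT. This scaling moved the median of all genes by -0.36 and -0.45.

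The 10 highest ratios shared by both libraries, ranked after the data were seen, are named here one by one, and no theme was tested for them. Ncl, a nucleolar protein of ribosome biogenesis, had a log2 ratio of 2.16 in TG (1.899 to 2.40) and 2.00 in WT (1.68 to 2.29), and was found on all 21 cells. Npm1, another nucleolar protein, was at 1.40 and 1.74. The translation factors Eif5a (1.81 and 1.83) and Eif4a1 (1.58 and 1.70) and the nuclear transport GTPase Ran (1.28 and 1.47) stood beside them. Anp32b and Set, histone chaperones, were at 1.23 and 1.52 and at 1.47 and 1.21. The chromatin remodeller Chd4, the histone demethylase Kdm6b and Swap70, a protein of B cell activation and migration, were between 1.12 and 1.61 in both libraries. In WT 49.6% of all cluster 29 UMIs came from the 3 deepest cells, and 56.8% of its Ncl UMIs were in 3 cells. Thinned to 1000 UMIs, Ncl was found on 9 of 11 TG and 9 of 10 WT cells, against 49.3% and 48.7% of cluster 1 cells.

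The 10 lowest ratios shared by both libraries rested on few UMIs. Bach2, a transcription factor that holds B cells back from plasma cell fate, was at -1.75 in TG (-3.51 to -0.66) and -1.903 in WT (-4.40 to -0.57), on 5 and 3 UMIs. Txnip, a metabolic brake on glucose uptake, was at -2.50 and -1.66, and Cd55 at -1.97 and -2.06. Tsc22d3, a glucocorticoid-induced gene, was at -1.46 on 13 UMIs in TG and -4.59 on 1 UMI in WT. Plekha2, Arhgap45, Ablim1, Ralgps2, Crlf3 and the integrin chain Itga4 were between -2.39 and -1.45. Each of these 10 genes had at most 13 UMIs in cluster 29, so their sizes are loosely set. They met the count minimum through their cluster 1 UMIs, so their place here was in part set by that minimum.

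**Figure D4:**
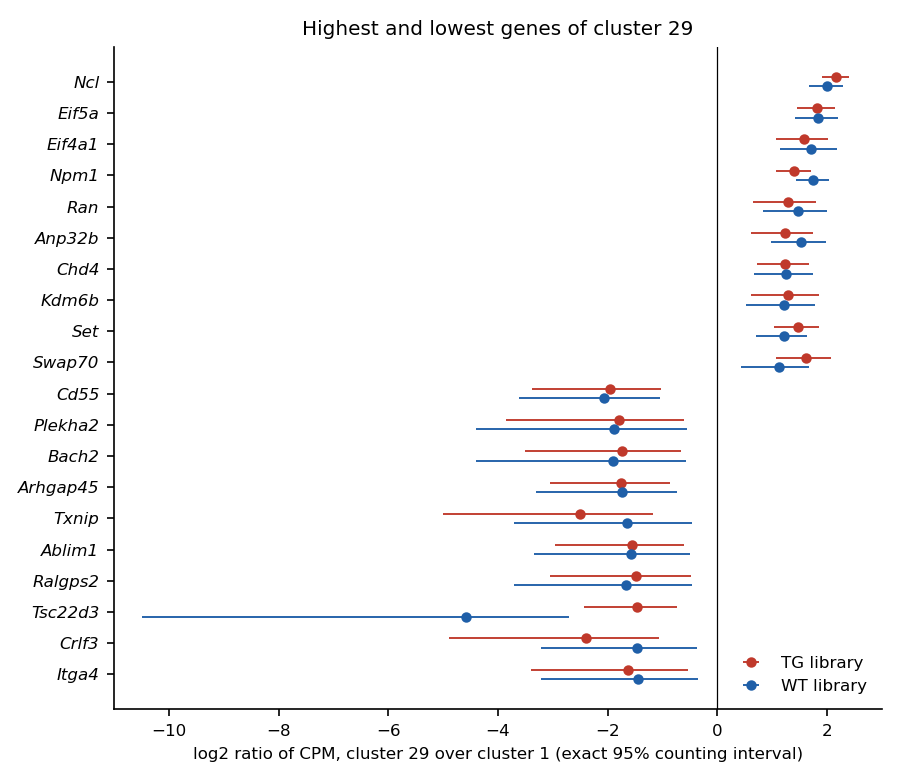
Log2 ratio of cluster 29 over cluster 1 for the 10 genes highest and the 10 lowest in both libraries, with 95% exact intervals for counting error, TG and WT side by side. Ncl leads at 2.16 and 2.00, and the widest interval is that of Tsc22d3 in WT, which rests on 1 UMI.

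By list, heat shock genes had a median of 0.90 in TG (2 of 6 2-fold higher) and 1.19 in WT (3 of 5). The chaperones Hsp90ab1 (1.01 and 1.19) and Hspa8 (1.03 and 1.32) were higher in both. With the TMM shift of -0.36 in TG and -0.45 in WT, both genes fall under 2-fold in each library. Ribosomal protein genes had medians of 0.06 and 0.09 over 30 genes, with none past 2-fold. B cell core genes had medians of -0.36 and -0.53, with 1 of 12 and 3 of 10 lower, and MHC class II genes -0.10 and -0.29. Homing and retention genes had medians of -1.21 and -1.66 over 3 genes each. Among them the chemokine receptor Cxcr4 was at -1.21 and -2.26 and Klf2, a regulator of lymphocyte trafficking, at -0.38 and -1.66. Ighd, the heavy chain of IgD, was at -1.12 and -1.75. At the protein level no antibody was more than 0.5 higher than in cluster 1 (0.0% of 49 in each genotype). In TG 1 (2.04%) and in WT 3 (6.12%) were more than 0.5 lower. IgD protein lay 0.67 below cluster 1 in WT, and CD200 0.83 below it. Cd22, an inhibitory receptor of B cells, was at -3.22 in TG on 3 UMIs and -0.51 in WT.

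Some genes of early B cell activation, named after their values were seen, were found on a larger share of cluster 29 cells, and others were not. These genes fell under the count minimum in cluster 29, apart from Nfkbid and Cd69, so their ratios rest on few counts. Myc was found on 10 of 11 TG and 8 of 10 WT cells, against 30.5% and 28.1% of cluster 1 cells. Thinned to 1000 UMIs it was on 7 of 11 and 7 of 10 cells, against 14.98% and 16.9%. Its log2 ratio was 2.04 (1.48 to 2.51) and 1.69 (1.02 to 2.23). Il4i1, an amino acid oxidase induced by IL-4, was on 8 of 11 and 4 of 10 cells, against 8.85% and 4.29% (3 of 11 and 2 of 10 after thinning, against 2.72% and 2.26%), and had log2 ratios of 2.90 (1.73 to 3.77) and 2.79 (0.99 to 3.95). The immediate early gene Egr2 was at 3.68 (2.05 to 4.84) and 3.57 (1.95 to 4.70), with 6 UMIs in each library, and was on 1 of 11 and 2 of 10 cells after thinning. Cd83, an activation marker, was at 2.25 (1.59 to 2.80) in TG and 0.87 (-0.70 to 1.89) in WT, and after thinning on 2 of 11 and 0 of 10 cells, against 11.3% and 10.2% of cluster 1 cells. Egr3, another immediate early gene, was on 7 of 11 and 7 of 10 cells, against 21.7% and 18.7%, and after thinning on 0 of 11 and 3 of 10, against 9.53% and 10.6%. Its log2 ratio was 1.04 (-0.17 to 1.91) and 1.64 (0.66 to 2.38). Cd69, an early activation marker, was on 4 of 11 TG cells, against 63.8% of cluster 1 cells, and on 7 of 10 WT cells, against 61.7%. After thinning it was on 3 of 11 and 7 of 10 cells, against 35.0% and 42.7%. Nfkbid, an atypical inhibitor of NF-κB, was at 1.11 and 2.49, and 95.6% of its WT UMIs were in 3 cells. Over the whole list of 21 immediate early genes the direction was the other way, with medians of -0.34 and -0.69 over the 15 that passed. The list of 25 NF-κB and activation genes, which holds Myc, had medians of 0.41 and 0.06 over the 3 that passed, and its summed level over all members was 6732 (TG) and 8539 (WT) CPM, against 3388 and 3953 CPM in cluster 1. Mki67 had no UMI in cluster 29 of either library. Against the closest mix of other classes, 15 of 585 genes in TG and 20 of 433 in WT were 2-fold higher in cluster 29, and 73 and 53 were 2-fold lower. In the match of single cells, 6 of 11 TG and 7 of 10 WT cells were matched best by an even mix of cluster 1 with immature B cells, against 5.93% and 3.76% of cluster 1 cells, and the others by cluster 1 alone. As the cluster 1 profile was summed from the cluster 1 cells themselves, this contrast is a description and not a test.

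The mature B cells outside cluster 1 were also compared between the libraries, and genes of cytotoxic lymphocytes were among those highest in TG. Of 3810 genes, 82 (2.15%) were 2-fold higher in TG and 145 (3.81%) 2-fold lower. The same shares were 2.04% and 1.37% of 9425 genes in cluster 1 and 6.2% and 3.03% of 11392 genes in T cells. Taken apart, cluster 17 had 74 of 3181 genes higher in TG (2.33%) and 130 lower (4.09%), and cluster 29 had 24 of 454 higher (5.29%) and 32 lower (7.05%). Cluster 17 made up 29 of the 40 TG cells and 155 of the 165 WT cells, so these ratios carry whatever T and NK transcripts cluster 17 held in each library. Cx3cr1, a chemokine receptor of effector lymphocytes, had 43 UMIs in TG and 2 in WT, a log2 ratio of 5.89 (4.25 to 9.28), beside 1.78 in cluster 1 and 3.79 in T cells. It met the count minimum through its TG UMIs, so its place at the top was in part set by that minimum. Klrg1, an inhibitory receptor of effector cells, was at 3.68 (1.93; T cells 3.54), and Gzma at 2.39 (2.59; T cells 3.34). The NK receptor genes Klra9 (2.36; cluster 1 1.89, T cells 1.57) and Klra7 (2.02; cluster 1 2.01, T cells 2.76) and the integrin Itgax (2.21; cluster 1 0.38, T cells 2.52) were also higher, and Klra9 and Klra7 belong to a family of near-identical copies whose reads the counting may split. Cx3cr1, Klrg1 and Gzma were thus higher in TG in cluster 1, in T cells and in the cells outside cluster 1. NKT cells were 446 of 2131 T cells in TG and 2232 of 4171 in WT, and their part in the T cell ratios was not tested. Without the cells holding B and T transcripts Gzma was at -1.82 and Klra9 at -3.76. These 2 values rest on the 10 TG and 17 WT cells left outside cluster 1, since 28 of 29 TG and 148 of 155 WT cluster 17 cells were taken out.

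The other genes among the 10 highest in TG differed less in T cells. Igha was at 3.65 (3.21 to 4.14), beside 1.83 in cluster 1 and -0.19 in T cells, and 74.7% of its TG UMIs were in 3 cells. Gbp2, an interferon-γ induced GTPase, was at 2.14, beside 1.84 in cluster 1 and 0.19 in T cells. Icam1 was at 1.77 (1.15 to 2.39), beside -0.03 and 0.08, and it was found on 22 of the 40 TG cells. Bscl2 was at 1.71, beside 0.32 and 0.85. Over the lists, interferon-γ GTPases had a median of 0.82 here and 1.32 in cluster 1, and MHC class I genes 0.38 and 0.62. Of 15 memory and atypical B cell genes 5 passed, Itgax among them, with a median of 1.58, beside 0.34 in cluster 1 and 1.66 in T cells. A member rare in WT can meet the count minimum only through its TG UMIs, so a high median is in part a condition of being counted. T cell markers had a median of -0.69 and NK cell markers 0.55.

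Part of the 10 genes lowest in TG were also lower in its T cells. Igfbp4 and Il6ra, a chain of the IL-6 receptor, each had 59 UMIs in WT and 0 in TG, which makes them at least 5.78-fold lower in TG, taking 3 counts over the group as the floor. Rgs10 had 46 UMIs in WT and 0 in TG, at least 4.50-fold lower. Emb, a cell adhesion protein, was at -3.22 (T cells -1.20), the NK receptor gene Klrc1 at -3.22 (T cells -0.71) and Ly6c1 at -2.45 (T cells -2.18). Hist1h1c (-2.50), Kcnn4 (-2.42), Hdhd5 (-2.35) and Pdpk1 (-2.16) were between -0.50 and -0.01 in T cells, and each had 2 to 4 UMIs in TG. These genes, and those with 0 UMIs in TG, met the count minimum through their WT UMIs. Their place at the low end was thus in part set by that minimum.

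Tgfbr2, the mouse gene of the receptor whose dominant negative form the TG mice carry, followed the T and NK cells in cluster 17. It was at 364 CPM in TG cluster 17 and 187 CPM in WT, against 211 and 244 CPM in cluster 1 and 337 and 159 CPM in T and NK cells. Over the cells outside cluster 1, its log2 ratio of TG to WT was 0.75 (0.31 to 1.17), beside -0.21 (-0.36 to -0.05) in cluster 1 and 1.04 (0.96 to 1.12) in T cells. Whether transcripts of the human transgene were counted under Tgfbr2 is not given in the sources used here, so this value is no check of the transgene.

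In the mouse genome (GRCm38, GENCODE vM21), the genes on which the account of cluster 17 turns are spread over several chromosomes. Cd79a is at chr7:24897381-24902197 on the plus strand, Ms4a1 at chr19:11249675-11266241 and Cd3e at chr9:44998740-45009627, both on the minus strand. Trac, a T cell receptor constant gene, is at chr14:54220521-54224206 on the plus strand. For cluster 29, Ncl is at chr1:86344719-86359400 on the minus strand and Myc at chr15:61985391-61990374 on the plus strand.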

How the data were processed

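CD45+ liver cells were tagged with antibodies and sample tags and captured on BD Rhapsody. The authors aligned reads to mm10 with STAR in the BD Rhapsody pipeline (version 1.9.2β in the methods, 1.9 in the file headers), filtered cells and genes by limits not given in the sources used here, removed the batch between datasets with CCA and clustered the cells in Seurat 4.0.1. The deposited tables gave UMI counts for 13528 genes (13478 matched to GENCODE vM21) and 49 antibodies. The deposited antibody levels are natural log centred ratios, which a recomputation from the counts matched. The mitochondrial percent per cell is the authors' own. Of 13528 genes, 630 had no UMI in TG and 365 in WT, so a gene at 0 may reflect the filter of the table. Genotype, cell type name and cluster number came from the deposited metadata, and the pool from the labels. Of barcode numbers, 267 were shared by the library captures, and none of these was shared between the cells outside cluster 1 and the other filtered library.

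Median depth ran from 1978 UMIs (WT cluster 1) to 6111 UMIs (TG cluster 17). UMI counts were summed per cell set and genotype and scaled to CPM. Log2 ratios used a pseudocount of 0.5 and exact conditional binomial intervals. A gene entered where the expected count in the smaller sum was at least 10, and 2-fold is a log2 ratio of at least 1. Shares have Clopper-Pearson and differences Newcombe intervals at 95%. No test was run, since each genotype is 1 library. The genes named are the 10 highest and 10 lowest, over cluster 1 by the ratio nearer 0 of TG and WT, and 2 to 4 members of each of 35 lists by summed count. Doublets were scored with Scrublet (scanpy 1.11.5, expected rate 5%). Reported values include them, and an alternative leaves them out. Mixes used non-negative least squares. Alternatives were TMM (edgeR 4.0.16 in R 4.3.3, for scaling only), no minimum count, thinning to 1000 UMIs, other totals, equal weight per cell and sets without doublets, without cells holding B and T transcripts or without cluster 17. Scripts were tested on simulated data. The cells and lists were chosen with earlier results of these data known. Cd5, Cd22, Mki67, Foxp3 and the CD4, CD8, NK and activation genes of the cell counts were named after their values were seen. The mixes, the matched classes, the ranking of cluster 29 and their alternatives were added after seeing the data. Some measured items are not reported here.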

Additional observations from a re-analysis of the deposited data

Results flagged for a closer look

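In cluster 17 relative to cluster 1, 2 of the named genes had counting intervals on opposite sides of 0 in TG and WT, and 2 gene lists had medians of opposite sign. A list was counted only where at least 5 members passed in each library and both medians were at least 0.1 from 0 in log2 ratio. The medians of the cell cycle list (-0.04 in TG and 0.24 in WT), the memory and atypical B list (0.32 and -0.38) and the plasma cell list (0.04 and -0.02) also differed in sign but fell under those limits. The difference between the libraries was not tested, since each genotype is 1 library. Itga4, the α4 integrin chain, had a log2 ratio of 0.65 in TG and -0.36 in WT. Il6ra had 0 UMIs in TG cluster 17 and 58 in WT, with a log2 ratio of -4.46 in TG, a value set by the pseudocount, and 0.48 in WT. The median of the interferon response list was -0.19 in TG and 0.21 in WT, and that of the ribosomal protein list -0.21 in TG and 0.16 in WT.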

How the results depend on the processing

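The share difference of -7.30 points moved to -2.04 without called doublets, to -0.19 without cells holding B and T transcripts and to 0.31, the opposite direction, without cluster 17. Counts of genes depend on the counts behind them, and fewer genes pass when cells are thinned or left out. Genes passing are given in the order main, no minimum count, thinned, without doublets, without cells holding B and T transcripts, without cluster 17. Outside cluster 1 they were 3600, 12366, 542, 1390, 486 and 585 in TG, and 3908 with TMM. In WT they were 7236, 12566, 2844, 3580, 910 and 433. For TG over WT they were 3810, 11755, 570, 1509, 541 and 454. For cells outside cluster 1 in TG, the 103 higher genes became 3145 with no minimum count, 8 when thinned, 34 without doublets, 13 without cells holding B and T transcripts and 23 without cluster 17, and the 148 lower genes became 953, 35, 51 without cells holding B and T transcripts, 73 without cluster 17 and 265 with TMM. In WT, under the same order of 5 settings, the 365 higher genes became 2039, 79, 104, 22 and 24 and the 278 lower genes 896, 166, 164, 73 and 63. For TG over WT, the 82 higher genes became 1670, 6, 46, 18 and 24 and the 145 lower genes 1298, 17, 96, 48 and 32. In cluster 17, thinning and leaving out doublets gave 9 and 9 higher and 30 and 53 lower genes in TG, with 251 lower under TMM, and 85 and 92 higher and 173 and 166 lower in WT. There 384 and 604 genes passed in TG, with 3269 under TMM, and 2712 and 3100 in WT. In cluster 29, thinning gave 1 higher and 11 lower in TG and 4 and 10 in WT, and TMM gave 200 lower in TG and 13 higher and 198 lower in WT. Genes passing there were 148 in TG and 142 in WT when thinned, and 792 and 642 with TMM. The 6 (TG) and 11 (WT) antibody differences past 0.5 outside cluster 1 became 16 and 17 as shares of summed antibody counts, and 0 in TG without doublets. Of 735 values of named genes under the alternatives, 683 moved little, 48 moved and 4 changed sign: Trim7 in TG cluster 17 without doublets (0.14), Blnk in WT cluster 17 (0.041) and, for TG over WT, Gzma (-1.82) and Klra9 (-3.76), the last 3 without cells holding B and T transcripts. The cause of these changes was not tested. Leaving out cells holding B and T transcripts left 10 TG and 17 WT cells outside cluster 1. Values with an expected count under 3 were not given: 30 when thinned, 11 without doublets, 48 without cells holding B and T transcripts and 16 without cluster 17. Of 796 list medians, 649 moved little, 147 moved and none was counted as changing sign. For genes and lists alike, a change of sign was counted only where the main value was at least 1 in size. Equal weight per cell and totals without ribosomal and mitochondrial or immunoglobulin genes kept all reported counts within 1.5 times, and the T and NK share of the mix and the 24 counts of matched classes stayed within their limits. The use of the counts in the library captures in place of the filtered table was not run. No paired analysis was possible because each genotype is 1 library and the groups share no more than 1 replicate number.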
